A study of Mus musculus with 16 samples.

Results

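Among the positively selected B cells of the mouse spleen, 2 subpopulations were set against each other here, the cMyc+early cells, with high CD23 and CD21/35, and the cMyc+lateCD23lo cells, with low CD23 and CD21/35. They were chosen by their labels. They made up 8 of the 16 RNA sequencing libraries of the series, 4 libraries per subpopulation, numbered 1 to 4, and 12505 of 51912 genes were compared, those whose normalized count averaged 10 or more across the 16 libraries. A normalized count is the number of reads of a gene divided by the size factor of its library. The mice carried cMyc gfp/gfp, a reporter in which GFP is fused to cMyc at its own locus, on a C57BL/6J background, were male and female, 6 to 15 weeks old, and had received sheep red blood cells (SRBCs) 7 d before the spleen was taken, in both groups alike. B cells were enriched by depleting CD43+ cells and sorted as B220+ CD38low CD95+ cMycGFP+. Cells high in CD69 (cMyc+prePB) and cells in the dark zone gate were first set aside, and the remaining light zone cells were divided by CD23 and CD21/35 into cMyc+early, cMyc+lateCD23int and cMyc+lateCD23lo. The labels do not say how many mice a library came from or whether libraries with the same number shared mice, so p-values measure the spread between these libraries only. Since the sort is by surface protein, a subpopulation can differ from another by its makeup as well as by the RNA per cell, and the libraries cannot tell these apart.

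A germinal center (GC) is the site in a lymphoid follicle where B cells mutate their antibody genes and are selected by antigen. In its light zone (LZ) the cells take up antigen and present it to T follicular helper cells. Selected cells switch on cMyc for a short time, and then return to the dark zone (DZ) to divide and mutate, or leave as memory B cells (MBCs) or plasma cells. CD23, encoded by *Fcer2a*, is the low-affinity IgE receptor of follicular B cells, and CD21/35, encoded by *Cr2*, is their complement receptor.

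The 8 libraries held 21911167 to 25153383 reads, with 14650 to 15439 genes detected in each, and their log2 values correlated by 0.853 to 0.903 with each other. Genes that define B and GC B cells were present in every library. *Cd79a* ranged from 20812 to 31676 normalized counts over the 8 libraries and *Bcl6*, the transcription factor that GC B cells depend on, from 1739 to 4242. Every library also held RNA of both sexes. *Xist* was at 520 to 2126 in cMyc+early and 205 to 2166 in cMyc+lateCD23lo, and the Y-linked *Ddx3y* at 697, 3079, 657 and 960 in cMyc+early libraries 1 to 4 and, each time higher at the same number, at 1319, 3694, 2017 and 2939 in cMyc+lateCD23lo (means of 1348 and 2492, limma adjusted p = 0.534). Markers of 8 other cell types were also counted. Of 11 T cell markers, *Cd3e* and *Trbc2* were at 0 in all 8 libraries, *Cd3g* was at most 30.8 and *Cd8a* at most 48.5. *Trac* was at 11.7 to 36.6 in cMyc+early and 36.7 to 110 in cMyc+lateCD23lo, *Pdcd1* at 0 to 24.4 and 2.16 to 175, and *Icos* at 0 and 0 to 83.0, and 5 of the 6 T cell markers tested were fitted higher in cMyc+lateCD23lo with 0 called. *Lck*, at 2157 to 3848 in cMyc+early and 3910 to 5801 in cMyc+lateCD23lo, made up most of the list's sum of 2197 to 3929.8 and 4151 to 6095. The summed markers of macrophages and monocytes were 2.89 to 190.3 in cMyc+early and 2.81 to 1168 in cMyc+lateCD23lo, those of erythroid cells 473 to 2428 and 682 to 1509, and those of platelets 7.08 to 200.2 and 64.2 to 126. Dendritic cell markers, mostly *Flt3*, summed to 756 to 1043 and 661 to 868, follicular dendritic and stromal markers to 4.19 to 279 and 42.1 to 189 with *Col1a2*, *Col3a1*, *Pdgfrb* and *Pdpn* at 0 throughout, neutrophil markers to 0 to 46.9 and 0 to 7.14, and NK cell markers to 0 to 122 and 0 to 77.7. The part of these cells and of the sex makeup in the differences below was not tested.

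In limma, run on log2(normalized count + 1) with Benjamini-Hochberg adjustment over the 12505 genes, 35 genes (0.280% of those tested) had an adjusted p-value under 0.05. Of them, 15 (0.120%) were higher in cMyc+early and 20 (0.160%) were higher in cMyc+lateCD23lo. The median of all tested genes was -0.01 on this log2 scale, and 1290 genes (10.3%) had an unadjusted p-value under 0.05. In all 35 genes the 4 libraries of one subpopulation lay above the 4 of the other, which held for 6.23% of all tested genes. The 35 were picked for a gap between these same libraries, which makes this likely, so nothing is read from it. The counts changed when single libraries were left out, in fits that also held fewer libraries, and the cause was not tested. The total was 18, 18, 17 and 19 without cMyc+early replicate 4 or cMyc+lateCD23lo replicate 2, 3 or 4, and the genes higher in cMyc+early numbered 28 without cMyc+lateCD23lo replicate 1. On recovered reads edgeR called 23 of the 35, and not *Arsb*, *Klf2*, *Pnkd*, *Nfatc1*, *Hpgds*, *Igkv1-110*, *Jchain*, *Arhgap8*, *Cd9*, *Serpinf1*, *Mcoln2* or *Gm37776* (edgeR adjusted p of 0.0616 to 0.241). In 13 genes, 10 of them higher in cMyc+early, the call held in each of the 8 fits that left out 1 of the compared libraries. The main fit did not pair libraries by number. With the library number as a term in the same fit, 90 genes were called, the 35 among them.

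**Figure D1:**
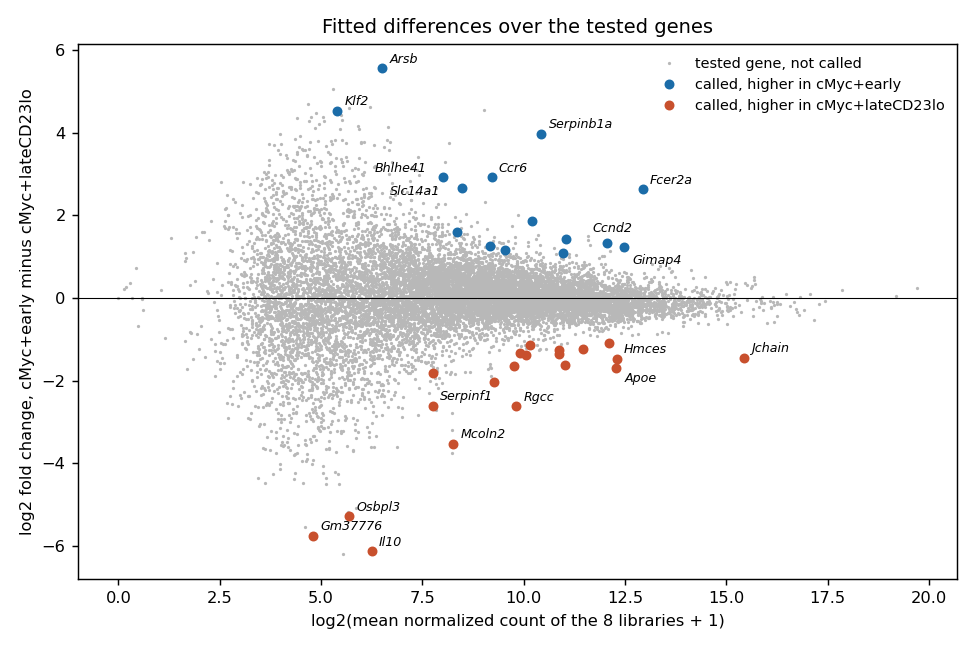
Log2 fold change of cMyc+early minus cMyc+lateCD23lo (vertical axis, fitted on log2 of the normalized count + 1) against the log2 mean normalized count of the 8 libraries + 1 (horizontal axis), with one point per tested gene. The 15 genes higher in cMyc+early and the 20 higher in cMyc+lateCD23lo are colored, and at low means many uncalled genes have differences as large as those called.

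The genes higher in cMyc+early began with receptors and surface proteins. *Fcer2a* (ENSMUSG00000005540, chromosome 8, 3681737 to 3694175 of GRCm38), the gene of the CD23 by which the cells were sorted, was at 9454, 17966, 9986 and 16187 normalized counts in cMyc+early libraries 1 to 4 and at 3953, 1721, 2138 and 1285 in cMyc+lateCD23lo. It was 5.89-fold higher in cMyc+early by the group means (log2 fold change 2.63 ± 0.39, SE, limma adjusted p = 0.00434), and since CD23 set the gate, this difference checks the labels and is no finding. *Ccr6* (ENSMUSG00000040899, chromosome 17, 8236043 to 8257141), the receptor of the chemokine CCL20, was at 1662, 598, 893 and 973 in cMyc+early and 222, 158, 182 and 38.8 in cMyc+lateCD23lo (log2 fold change 2.93 ± 0.48, limma adjusted p = 0.00872). Library 1 was the highest of the cMyc+early libraries and library 4 the lowest of the others. *Gpr183* (ENSMUSG00000051212, chromosome 14, 121952551 to 121965195), the oxysterol receptor EBI2 that draws B cells toward the outer follicle, was at 2410.5, 1638, 1872 and 1447 against 697, 329, 428 and 621 (3.55-fold higher, log2 fold change 1.86 ± 0.26, limma adjusted p = 0.00349). *Sdc4*, a heparan sulfate proteoglycan of the cell surface, was at 3520.3, 2632, 3054 and 2984 against 1612, 757, 1218 and 1080.0 (log2 fold change 1.43 ± 0.23, limma adjusted p = 0.00872). The urea transporter gene *Slc14a1* was at 587, 581, 769.9 and 514 against 86.2, 90.8, 94.8 and 106, and its 6.49-fold difference had the smallest adjusted p of those higher in cMyc+early (log2 fold change 2.67 ± 0.32, limma adjusted p = 0.000611). Spread within each subpopulation was small in *Slc14a1*, whose cMyc+lateCD23lo libraries lay between 86.2 and 106.

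Among regulators of transcription and of the cell cycle, *Klf2* (ENSMUSG00000055148, chromosome 8, 72319033 to 72321656), a transcription factor of resting and recirculating lymphocytes, was at 153, 61.9, 45.2 and 56.9 in cMyc+early and at 6.47, 0, 5.10 and 1.02 in cMyc+lateCD23lo (log2 fold change 4.53 ± 0.90, limma adjusted p = 0.0394). *Bhlhe41*, a helix-loop-helix repressor, was at 526, 328, 410.0 and 551 against 72.2, 48.7, 52.0 and 61.2, 7.76-fold higher (log2 fold change 2.92 ± 0.39, limma adjusted p = 0.00183). The 4 cMyc+early values of *Bhlhe41* were all above 4 times the highest cMyc+lateCD23lo value. *Ccnd2* (ENSMUSG00000000184, chromosome 6, 127125162 to 127152193), the G1 cyclin D2 through which signals from outside the cell act on the cycle, was at 4280.2, 6965, 6611 and 6656 against 1999, 3325, 2299.9 and 2106 (2.52-fold higher, log2 fold change 1.34 ± 0.23, limma adjusted p = 0.013). *Gadd45g*, a gene of the stress-induced Gadd45 family, was at 1002, 734, 817 and 669.9 against 464, 298, 228 and 391 (log2 fold change 1.25 ± 0.23, limma adjusted p = 0.0202). *Klf2* passed in 1 of the 8 fits that left out a library, the one without cMyc+lateCD23lo replicate 1 (limma adjusted p up to 0.133 in the others). *Ccnd2* no longer passed without cMyc+early replicate 4 or cMyc+lateCD23lo replicate 3 or 4 (up to 0.0561), and *Gadd45g* without cMyc+early replicate 1 or 3 or cMyc+lateCD23lo replicate 2 or 3 (up to 0.0892).

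Other genes higher in cMyc+early encode enzymes, inhibitors and GTPases. *Serpinb1a*, an inhibitor of serine proteases, was at 4339, 1647, 2632 and 1677 in cMyc+early and 266, 249, 34.7 and 216 in cMyc+lateCD23lo, 13.4-fold higher (log2 fold change 3.97 ± 0.59, limma adjusted p = 0.00434). Its log2 fold change was 3.28 without cMyc+lateCD23lo replicate 3, the library with the lowest value. *Arsb*, a lysosomal sulfatase, was at 227, 217, 123 and 127 against 2.16, 0.936, 25.5 and 0 (log2 fold change 5.56 ± 0.96, limma adjusted p = 0.013). The third cMyc+lateCD23lo library stood apart in *Arsb*, and without it the log2 fold change was 6.52. The call was lost without cMyc+lateCD23lo replicate 2 or 4 (limma adjusted p up to 0.0529), in the latter case at a log2 fold change of 4.94. *Fam212a*, which encodes an inhibitor of the kinase PAK4, was at 408, 546, 480.3 and 524 against 175, 164, 169 and 139.7 (log2 fold change 1.59 ± 0.26, limma adjusted p = 0.0105), with a narrow range in both groups. *Gimap4* and *Gimap3* (chromosome 6, 48684549 to 48692060, and chromosome 6, 48764464 to 48770851) encode GTPases of a family that bears on lymphocyte survival and lie 72404 bases apart. *Gimap4* was at 7924 ± 1564 in cMyc+early (mean ± SD, n = 4) and 3422 ± 858 in cMyc+lateCD23lo (log2 fold change 1.22 ± 0.20, limma adjusted p = 0.00872), and *Gimap3* at 2746 ± 456 and 1274 ± 157 (1.10 ± 0.17, limma adjusted p = 0.00702). *Coro2a*, a coronin that binds actin, was at 1020.2 ± 128 and 462 ± 88.5 (log2 fold change 1.15 ± 0.21, limma adjusted p = 0.0146), and no longer passed without cMyc+early replicate 4 or cMyc+lateCD23lo replicate 2 or 3 (up to 0.0755).

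**Figure D2:**
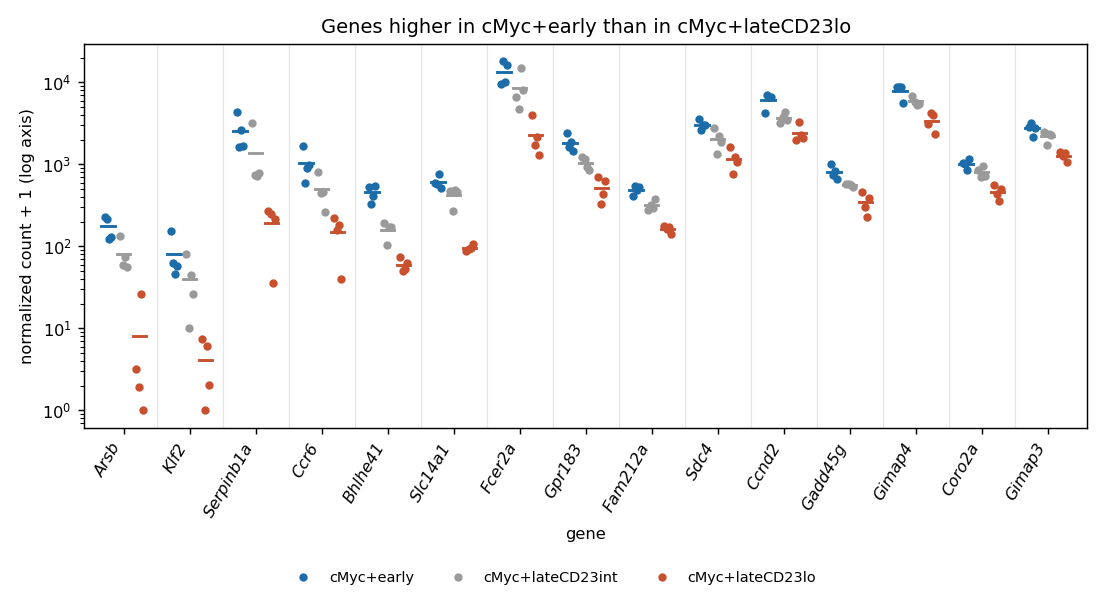
Normalized count + 1 on a log axis for the 15 genes higher in cMyc+early, with one point per library, 4 libraries each of cMyc+early, cMyc+lateCD23int and cMyc+lateCD23lo, and a bar at each group mean. In every gene the 4 cMyc+early points lie above the 4 cMyc+lateCD23lo points, and *Klf2* and *Arsb* reach the bottom of the scale in cMyc+lateCD23lo.

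Of the genes higher in cMyc+lateCD23lo, *Il10* had the smallest adjusted p-value. *Il10* (ENSMUSG00000016529, chromosome 1, 131019845 to 131024974), a cytokine that restrains immune responses and is made by some activated B cells, had no more than 3 reads in any cMyc+early library, against 116, 199, 84.6 and 198 normalized counts in cMyc+lateCD23lo libraries 1 to 4 (limma adjusted p = 0.000518). The cMyc+lateCD23int libraries were at 47.8, 127, 44.6 and 49.3. With 3 reads per library taken as the floor (3.14 normalized counts at most in cMyc+early), the mean of *Il10* in cMyc+lateCD23lo was at least 47.6-fold higher. The call held in all 8 fits that left out 1 library (limma adjusted p up to 0.00363). *Il10* was the 1 called gene of 14 tested genes of cytokines and their receptors, where 0.160% of all tested genes were called in its direction. The median log2 fold change of the 14 was 0.17, the same with *Il10* set at its bound. This floor covers counting error only, since no molecular identifiers mark which reads come from 1 molecule.

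Also higher in cMyc+lateCD23lo were *Jchain* and a pair of kappa variable genes. *Jchain* (ENSMUSG00000067149, chromosome 5, 88519809 to 88527891), the chain that joins IgM and IgA into polymers, was at 23623 ± 3331 normalized counts in cMyc+early and 64836 ± 14003 in cMyc+lateCD23lo (mean ± SD, n = 4), 2.74-fold higher (log2 fold change -1.44 ± 0.29, limma adjusted p = 0.0394). *Igkv1-117* (chromosome 6, 68121046 to 68121827), a kappa variable gene, was at 1210.5, 1142, 864 and 849 in cMyc+early and 2891, 3649, 2606 and 3311 in cMyc+lateCD23lo (log2 fold change -1.62 ± 0.28, limma adjusted p = 0.013). *Igkv1-110*, 148658 bases away, was at 1047 ± 216 and 2683 ± 584 (-1.35 ± 0.28, limma adjusted p = 0.0406). Members of the kappa variable family resemble each other, and how reads were divided between them is uncertain. *Jchain* and *Igkv1-110* each passed in 1 of the 8 fits that left out a library, the one without cMyc+lateCD23lo replicate 1 (limma adjusted p up to 0.158 and 0.161), and *Igkv1-117* was lost without cMyc+early replicate 3 or 4 or cMyc+lateCD23lo replicate 2 or 4 (up to 0.0645).

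The calls higher in cMyc+lateCD23lo also held *Osbpl3*, *Apoe*, *Lipc*, *Hpgds* and *Mcoln2*. *Osbpl3*, a protein of the oxysterol-binding family, also stayed within 3 reads in cMyc+early, and reached 33.4, 205, 37.7 and 123 in cMyc+lateCD23lo (limma adjusted p = 0.0136, a difference of at least 31.8-fold over the same floor). *Apoe* (ENSMUSG00000002985, chromosome 7, 19696109 to 19699188), a lipid carrier, was at 3508, 2925, 1618 and 1655 in cMyc+early and 7942, 9656, 6332 and 6038 in cMyc+lateCD23lo (log2 fold change -1.68 ± 0.26, limma adjusted p = 0.00546). *Apoe* is also abundant in macrophages. The summed macrophage and monocyte markers averaged 79.6 in cMyc+early (2.89 to 190.3) and 491 in cMyc+lateCD23lo (2.81 to 1168). The part of such cells in the *Apoe* difference was not tested. *Lipc*, a secreted lipase best known from liver, was at 485, 369, 527 and 319 against 1361, 1215, 1480.2 and 1152 (log2 fold change -1.64 ± 0.29, limma adjusted p = 0.0146). *Hpgds*, which makes prostaglandin D2, was at 538 ± 114 and 1371 ± 422 (-1.33 ± 0.27, limma adjusted p = 0.0405). *Mcoln2*, a cation channel of endosomes and lysosomes, was at 8.38, 78.8, 19.2 and 255 against 371, 610.1, 652 and 452 (log2 fold change -3.52 ± 0.71, limma adjusted p = 0.0405). Its cMyc+early values spread widely, from 8.38 to 255, and the log2 fold change was -2.77 without cMyc+early replicate 1 and -4.36 without cMyc+early replicate 4. *Mcoln2* passed only without cMyc+early replicate 2 or 4 (limma adjusted p up to 0.141 in the other fits), and *Hpgds* only without cMyc+lateCD23lo replicate 1 (up to 0.166). *Osbpl3* was lost without cMyc+lateCD23lo replicate 2 or 4 (up to 0.0789), and *Lipc* without cMyc+early replicate 4 or cMyc+lateCD23lo replicate 2 or 3 (up to 0.0713).

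Among genes of signaling and the cell surface, *Rgcc*, a regulator of the cell cycle, was at 218, 284, 271 and 217 in cMyc+early and 1144, 1406, 1540.4 and 2105 in cMyc+lateCD23lo, 6.26-fold higher (log2 fold change -2.62 ± 0.45, limma adjusted p = 0.013). *Cd9* (ENSMUSG00000030342, chromosome 6, 125460266 to 125494791), a tetraspanin of marginal zone B cells and plasma cells, was at 371, 91.1, 317 and 236 against 586, 811, 1181 and 1295 (log2 fold change -2.04 ± 0.41, limma adjusted p = 0.0394). *Serpinf1*, a secreted protein of the serpin family, was at 48.2, 42.5, 33.7 and 126 against 154, 352, 443 and 528 (log2 fold change -2.60 ± 0.51, limma adjusted p = 0.0394). In *Serpinf1* the highest cMyc+early library, the fourth, came close to the lowest cMyc+lateCD23lo library, the first. *Arhgap8*, which acts on small GTPases, was at 111, 66.4, 88.5 and 121 against 310.4, 265, 375 and 406 (log2 fold change -1.82 ± 0.37, limma adjusted p = 0.0405). *Nfatc1* (ENSMUSG00000033016), a transcription factor that calcium signals from the B cell receptor (BCR) activate, was at 1092 ± 284 in cMyc+early and 2636 ± 703 in cMyc+lateCD23lo (log2 fold change -1.27 ± 0.26, limma adjusted p = 0.0476), and *Anxa2*, an annexin that binds membranes, at 1711 ± 567 and 3924 ± 433 (-1.24 ± 0.23, limma adjusted p = 0.0173).

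Each of these 6 calls was lost when some single library was left out. *Arhgap8* passed in none of the 8 fits that left out a library (limma adjusted p up to 0.158) and *Nfatc1* in 1, the one without cMyc+early replicate 2 (up to 0.168). *Serpinf1* passed without cMyc+early replicate 4 or cMyc+lateCD23lo replicate 1 only (up to 0.158), and *Cd9* without cMyc+early replicate 1 or 3 or cMyc+lateCD23lo replicate 1 only (up to 0.158). *Rgcc* was lost without cMyc+early replicate 4 or cMyc+lateCD23lo replicate 3 or 4 (up to 0.0571), and *Anxa2* without cMyc+early replicate 3 or 4 or cMyc+lateCD23lo replicate 3 or 4 (up to 0.0809).

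The remaining genes higher in cMyc+lateCD23lo act in DNA protection and metabolism or have no role stated here. *Hmces* (ENSMUSG00000030060, chromosome 6, 87913935 to 87936629), which shields abasic sites in single-stranded DNA, was at 2533, 2731, 2947 and 2444 in cMyc+early and 6108, 7193, 8334 and 7969 in cMyc+lateCD23lo, 2.78-fold higher (log2 fold change -1.47 ± 0.19, limma adjusted p = 0.00122). The highest cMyc+early value of *Hmces* was less than 0.5 times the lowest cMyc+lateCD23lo value, and its call held in all 8 fits that left out 1 library. *Ada*, adenosine deaminase, was at 2849.7 ± 543 and 5954 ± 705 (mean ± SD, n = 4, log2 fold change -1.08 ± 0.19, limma adjusted p = 0.013). It was lost without cMyc+early replicate 4 or cMyc+lateCD23lo replicate 3 (up to 0.0682). *Pnkd* ranged from 603 to 986 in cMyc+early and from 1273 to 1823 in cMyc+lateCD23lo (limma adjusted p = 0.0405), and *Ccdc28b* was at 610.4 ± 210.4 and 1510.1 ± 56.6 (limma adjusted p = 0.0143). *Pnkd* passed only without cMyc+early replicate 3 (up to 0.158 in the other fits), and *Ccdc28b* was lost without cMyc+early replicate 4 or cMyc+lateCD23lo replicate 2, 3 or 4 (up to 0.0613). *Gm37776* (chromosome 3, 65678386 to 65680882), which the annotation lists as a transcript still to be tested by experiment, was at 0 in all cMyc+early libraries and at 62.5, 40.2, 71.4 and 42.8 in cMyc+lateCD23lo (limma adjusted p = 0.0447, a difference of at least 17.2-fold over the floor), and passed in none of the fits that left out a library (up to 0.147).

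**Figure D3:**
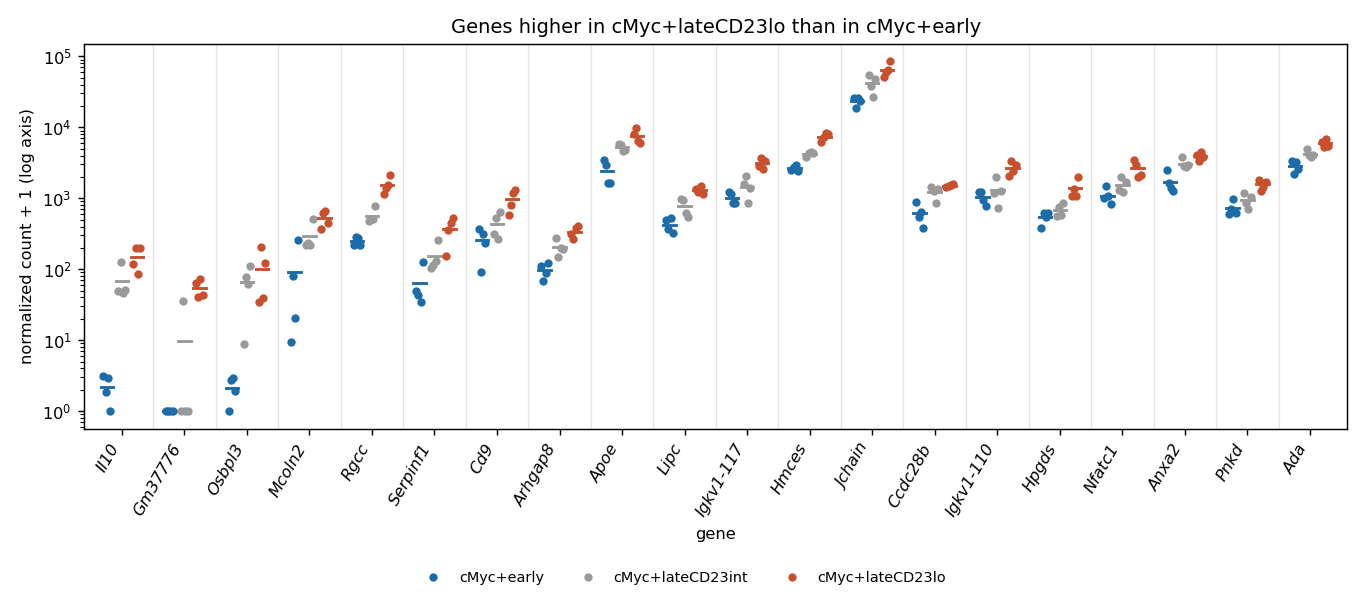
Normalized count + 1 on a log axis for the 20 genes higher in cMyc+lateCD23lo, with one point per library in cMyc+early, cMyc+lateCD23int and cMyc+lateCD23lo (4 libraries each) and a bar at each group mean. *Il10*, *Gm37776* and *Osbpl3* lie at the bottom of the scale in all cMyc+early libraries, and the 4 *Hmces* points of each subpopulation lie close together.

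In cMyc+lateCD23int, the subpopulation with intermediate CD23, the mean lay between those of cMyc+early and cMyc+lateCD23lo in 15 of 15 genes higher in cMyc+early and 20 of 20 higher in cMyc+lateCD23lo, against 42.4% of all tested genes. The called genes were picked for a wide gap between the outer subpopulations, which makes such an order likely, so nothing is read from these counts. *Arsb* was at 131, 58.0, 72.7 and 55.8 in cMyc+lateCD23int, *Serpinb1a* at 3195, 735, 713 and 792 and *Hmces* at 3775, 4379, 4512 and 4342. Against cMyc+early, 1 gene (0.00800%) passed in the same limma fit, *Il10*, and against cMyc+lateCD23lo also 1 (0.00800%), *Slc14a1*, which stood at 467, 271, 485 and 459. These comparisons share libraries with the one above.

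The promoter sequences of these genes were read for the motif CACGTG, the E-box that cMyc and its partner Max bind, since every cell in the comparison was sorted for cMyc. The windows, from RefSeq on GRCm38.p6, run from 250 bases before to 50 after a gene's start, and 24 of the 35 genes had at least 1. Below are the 3 windows with an E-box and those of the neighboring pair *Gimap4* and *Gimap3*, each from 5′ to 3′ on the gene's strand. Capitals mark the motifs found on either strand, here CACGTG and TGGGAA (the core bound by RBPJ, TTCCCA when read on the other strand), and the window of *Gimap4* held none.
Bhlhe41, chr6:145865371-145865670, - strand: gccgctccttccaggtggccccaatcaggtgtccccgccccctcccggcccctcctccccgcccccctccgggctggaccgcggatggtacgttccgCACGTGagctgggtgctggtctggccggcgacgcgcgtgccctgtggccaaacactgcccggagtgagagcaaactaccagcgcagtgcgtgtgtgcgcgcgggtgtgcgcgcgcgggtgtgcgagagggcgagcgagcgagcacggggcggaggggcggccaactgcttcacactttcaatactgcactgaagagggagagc
Gadd45g, chr13:51846425-51846724, + strand: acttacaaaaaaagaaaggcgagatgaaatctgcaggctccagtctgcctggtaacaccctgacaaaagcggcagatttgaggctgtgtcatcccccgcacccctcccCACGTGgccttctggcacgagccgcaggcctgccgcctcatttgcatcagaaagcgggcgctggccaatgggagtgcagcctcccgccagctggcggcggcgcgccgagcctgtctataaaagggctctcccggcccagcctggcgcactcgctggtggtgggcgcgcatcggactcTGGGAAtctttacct
Mcoln2, chr3:146149924-146150223, + strand: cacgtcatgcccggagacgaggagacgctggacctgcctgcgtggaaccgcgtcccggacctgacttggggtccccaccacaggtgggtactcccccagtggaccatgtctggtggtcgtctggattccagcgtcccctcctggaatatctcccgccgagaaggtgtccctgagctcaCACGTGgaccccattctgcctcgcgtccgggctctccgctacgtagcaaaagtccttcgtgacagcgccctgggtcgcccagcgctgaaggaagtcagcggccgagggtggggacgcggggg
Gimap4, chr6:48684328-48684627, + strand: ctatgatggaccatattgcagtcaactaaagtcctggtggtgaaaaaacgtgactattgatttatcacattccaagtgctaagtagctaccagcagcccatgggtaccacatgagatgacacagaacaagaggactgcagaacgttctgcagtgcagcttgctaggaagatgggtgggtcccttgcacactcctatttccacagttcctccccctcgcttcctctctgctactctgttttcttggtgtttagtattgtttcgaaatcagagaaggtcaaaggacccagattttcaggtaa
Gimap3, chr6:48770802-48771101, - strand: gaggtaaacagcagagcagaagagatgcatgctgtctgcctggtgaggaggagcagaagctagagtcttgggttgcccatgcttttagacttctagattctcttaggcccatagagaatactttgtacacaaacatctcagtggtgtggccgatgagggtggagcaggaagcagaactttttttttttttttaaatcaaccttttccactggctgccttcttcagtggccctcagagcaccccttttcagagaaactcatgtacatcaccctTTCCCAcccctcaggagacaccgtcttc

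CACGTG stood in the windows of 2 of 11 genes higher in cMyc+early (*Bhlhe41*, *Gadd45g*) and 1 of 13 higher in cMyc+lateCD23lo (*Mcoln2*), and in 7.17% of all 32544 windows. TGGGAA, searched like the others on both strands, stood in 5 of 11 and 5 of 13 genes and in 25.4% of all windows. The AP-1 motif TGACTCA was in 1 of 11 (*Fcer2a*) and 1 of 13 (*Anxa2*), and in 5.19% of all windows. TTTGAA, the CHR element of cell cycle genes, was in 3 of 11 and 3 of 13, and in 17.8%. A kappa-B-like motif, of the kind NF-kB binds, was in 0 of both groups and in 0.415% of all windows. A gene with several windows counted if any held the motif, and *Fcer2a* had 3 windows. The background is by window, so the gene counts are not a like measure. By window, CACGTG stood in 2 of 15 (genes higher in cMyc+early) and 1 of 16 (higher in cMyc+lateCD23lo). TGGGAA stood in 6 of 15 and 5 of 16, TGACTCA in 1 of 15 and 1 of 16, and TTTGAA in 3 of 15 and 4 of 16. The windows of *Gimap4* and *Gimap3* shared no searched motif, and a match is a run of letters and not a measured site.

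The genes of the other sorting markers overlapped between the subpopulations except for *Cxcr4*. *Cr2*, the gene of CD21/35, by which the cells were also sorted, was at 9349.5, 6079, 5463 and 5659 in cMyc+early and 8993, 2633, 4392 and 2935 in cMyc+lateCD23lo (log2 fold change 0.63, limma adjusted p = 0.534). The first cMyc+lateCD23lo library lay within the range of cMyc+early, though *Cr2* was higher in cMyc+early at every library number. *Cxcr4*, the receptor that keeps GC B cells in the DZ, was at 72.3, 72.6, 109 and 72.2 against 142, 174, 147 and 152 without passing (limma adjusted p = 0.444). *Cd86*, a costimulatory ligand of LZ cells, was at 12142, 8495, 8295 and 6527 against 14727, 6066, 8469 and 5881 (limma adjusted p = 0.943). *Myc* itself (ENSMUSG00000022346) was at 1183, 3503, 1760.3 and 3563 against 1528, 1698, 1282 and 1198 (log2 fold change 0.68, limma adjusted p = 0.558), with cMyc+early libraries 2 to 4 above the range of cMyc+lateCD23lo and library 1 below it. *Cd69*, the early activation marker used to set cMyc+prePB apart, was at 4579.9, 2239.7, 3817 and 2002 against 3686, 1794, 2178 and 1451 (limma adjusted p = 0.665). It was also higher in cMyc+early at every library number, and the numbers were not taken as pairs in the test. *Ptprc*, *Fas* and *Cd38*, whose proteins were gated alike in both groups, had log2 fold changes of -0.01, -0.03 and 0.30 (limma adjusted p of 0.987, 0.98 and 0.756). The signs of the first pair turned under other scalings.

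**Figure D4:**
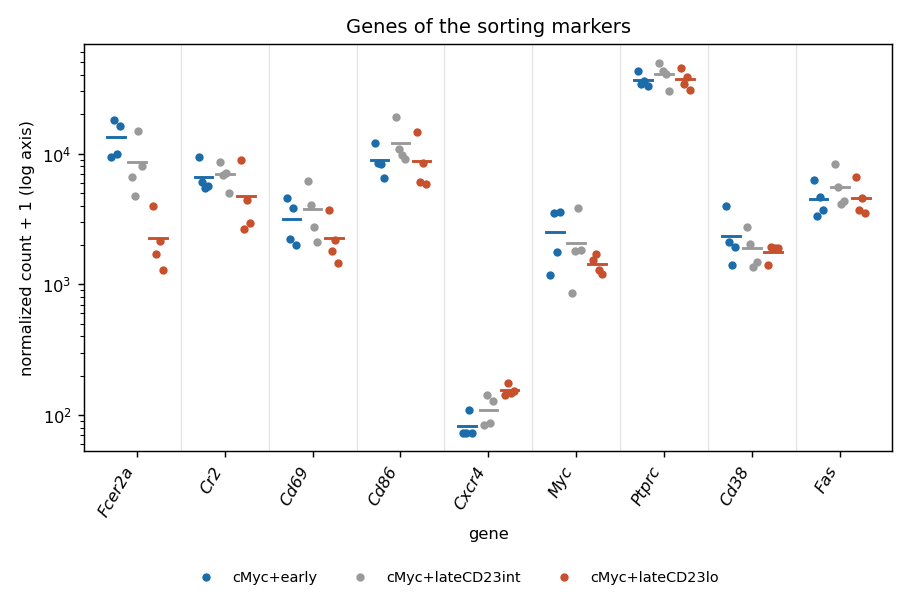
Normalized count + 1 on a log axis for the genes of 9 sorting markers, with one point per library in cMyc+early, cMyc+lateCD23int and cMyc+lateCD23lo (4 libraries each) and a bar at each group mean. The points of cMyc+early and cMyc+lateCD23lo are apart in *Fcer2a* and *Cxcr4* and overlap in the other 7 genes.

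Lists of genes that mark resting, follicular and memory B cells had medians above 0, that is toward cMyc+early. Of 8 genes that the study named for MBC precursors, 3 were called higher in cMyc+early (*Klf2*, *Ccr6*, *Gpr183*) and 0 lower, against 0.120% and 0.160% of all tested genes, and 6 had all cMyc+early libraries above, as 2.86% of all tested genes had. The list's median log2 fold change was 2.73, against -0.01 over all tested genes. The study chose these genes on the same samples, so the list is not independent evidence of its direction. *Hhex*, a transcription factor of memory B cells, was at 477, 273, 183 and 155 against 168, 1.87, 59.1 and 32.6 (limma adjusted p = 0.379), and *S1pr1*, the receptor for exit along sphingosine 1-phosphate, at 152, 111, 182 and 86.7 against 75.4, 56.1, 55.1 and 0 (limma adjusted p = 0.462). *Il9r*, an interleukin receptor, had a log2 fold change of 1.31 and *Pecam1*, an adhesion molecule, of 1.01 (limma adjusted p = 0.404 and 0.242). Of 14 genes of follicular and naive B cells, 12 had fitted values higher in cMyc+early, 2 were called (*Fcer2a*, *Klf2*) and the median was 0.82. The call of *Fcer2a*, the gene of the gated CD23, was given by the sort and is no evidence for this list. *Klf2* passed in 1 of the 8 fits that left out a library. Both of these lists and a list of 19 positioning receptors, with *Gpr183* and *Ccr6* called and a median of 0.21, share members. In 13 other MBC genes 0 were called and the median was 0.26, with the survival gene *Bcl2* at 799, 290.2, 339 and 424 in cMyc+early and 329.8, 1.87, 81.6 and 12.2 in cMyc+lateCD23lo (limma adjusted p = 0.153).

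Genes of the LZ program and of T cell contact leaned the same way with few calls. Of 18 LZ genes, 16 had fitted values higher in cMyc+early (49.6% of all tested genes did), and the median log2 fold change was 0.58. *Gpr183* was called, as 0.120% of all tested genes were in that direction. In 21 genes of T cell help and costimulation the median was 0.42 with 18 fitted higher and 0 called. Those with the smallest p were *Tnfrsf13b*, the BAFF and APRIL receptor TACI, at 6689, 5643, 6586 and 7231 against 3885, 4632, 4582 and 4875, the SLAM family receptor gene *Ly9* at 7149 ± 688 against 5194 ± 749.9, the integrin ligand gene *Icam1* at 1584 ± 410.5 against 850.3 ± 260.1, and *Cd40*, the receptor of T cell help, at 3622 ± 824 against 2429 ± 569 (limma adjusted p of 0.223, 0.227, 0.238 and 0.317). All 12 tested genes of MHC class II presentation had fitted values higher in cMyc+early, by 0.02 to 0.58 on the log2 scale with a median of 0.30, none was called and none was apart between the groups. Among them, *H2-DMb2*, of the peptide exchange factor H2-DM, was at 41292, 34683, 37198 and 32902 against 36417, 25927, 27299.8 and 23283 (limma adjusted p = 0.359). *H2-DMb2* was higher in cMyc+early at every library number, and the numbers were not taken as pairs in the test. The NF-kB list had a median of 0.42 (13 of 17 fitted higher, 0 called), the IL-4 and STAT list 0.52 (13 of 16, 0 called) and the immediate early and AP-1 list 0.47 (12 of 16, 0 called). These lists, the LZ list and that of T cell help share members, so their medians are not independent of each other. *Traf1* and *Icam1* are in the LZ, T cell help and NF-kB lists, and *Traf1* gives the median of both the T cell help and the NF-kB list. *Tnfaip3*, an inhibitor of NF-kB signaling, was at 697, 1024, 671 and 769 against 512, 260.1, 463 and 316 (limma adjusted p = 0.194), and *Batf*, an AP-1 factor, at 3268 ± 815 against 1931 ± 195 (limma adjusted p = 0.116). Of 29 BCR signaling genes, 21 were fitted higher in cMyc+early with a median of 0.18. The 1 called, *Nfatc1*, was lower, as 0.160% of all tested genes were called lower.

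Genes of cell division and plasma cell differentiation gave few calls. Of all tested genes, 0.120% were called higher and 0.160% lower in cMyc+early. In 30 cMyc targets the median log2 fold change was 0.20, with 21 fitted higher in cMyc+early, 0 called and 0 apart between groups. *Srm*, spermidine synthase, was at 1381, 2528, 2383 and 3581 in cMyc+early and 688, 1782, 1681 and 1798 in cMyc+lateCD23lo (limma adjusted p = 0.487). Among 43 S phase genes, 30 were fitted lower in cMyc+early, 7 were apart in that direction (3.37% of all tested genes were) and 0 were called, with a median of -0.17. *Pcna*, the sliding clamp of DNA replication, was at 14696, 11541, 14191 and 10178 against 17693, 17543, 20213 and 19153 (limma adjusted p = 0.153), and *Dscc1* and *Cenpu* had log2 fold changes of -0.93 and -0.79 (limma adjusted p of 0.164 and 0.262). In 52 G2/M genes the median was 0.07 with 0 called. In 18 G1 cyclins and inhibitors it was -0.01 with *Ccnd2* called, and in 13 DZ genes -0.06 with 0 called. The sign of these 3 medians turned under alternatives. In 15 GC identity genes the median was -0.17 with 0 called. Of 19 plasma cell genes, *Jchain* was called higher in cMyc+lateCD23lo, 5 were apart in that direction and the median was -0.13. *Prdm1* (ENSMUSG00000038151), the transcription factor Blimp-1 that drives plasma cell differentiation, was at 2.10, 7.96, 0 and 0.903 in cMyc+early and 90.5, 133, 10.2 and 97.9 in cMyc+lateCD23lo, and at 98.5, 130.3, 36.3 and 57.6 in cMyc+lateCD23int, and missed the threshold (limma adjusted p = 0.0893). *Ell2*, an elongation factor that favors the secreted form of antibody, was at 742, 1156, 1062 and 949.8 against 1527, 1614, 2244 and 1667 (limma adjusted p = 0.096).

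**Figure D5:**
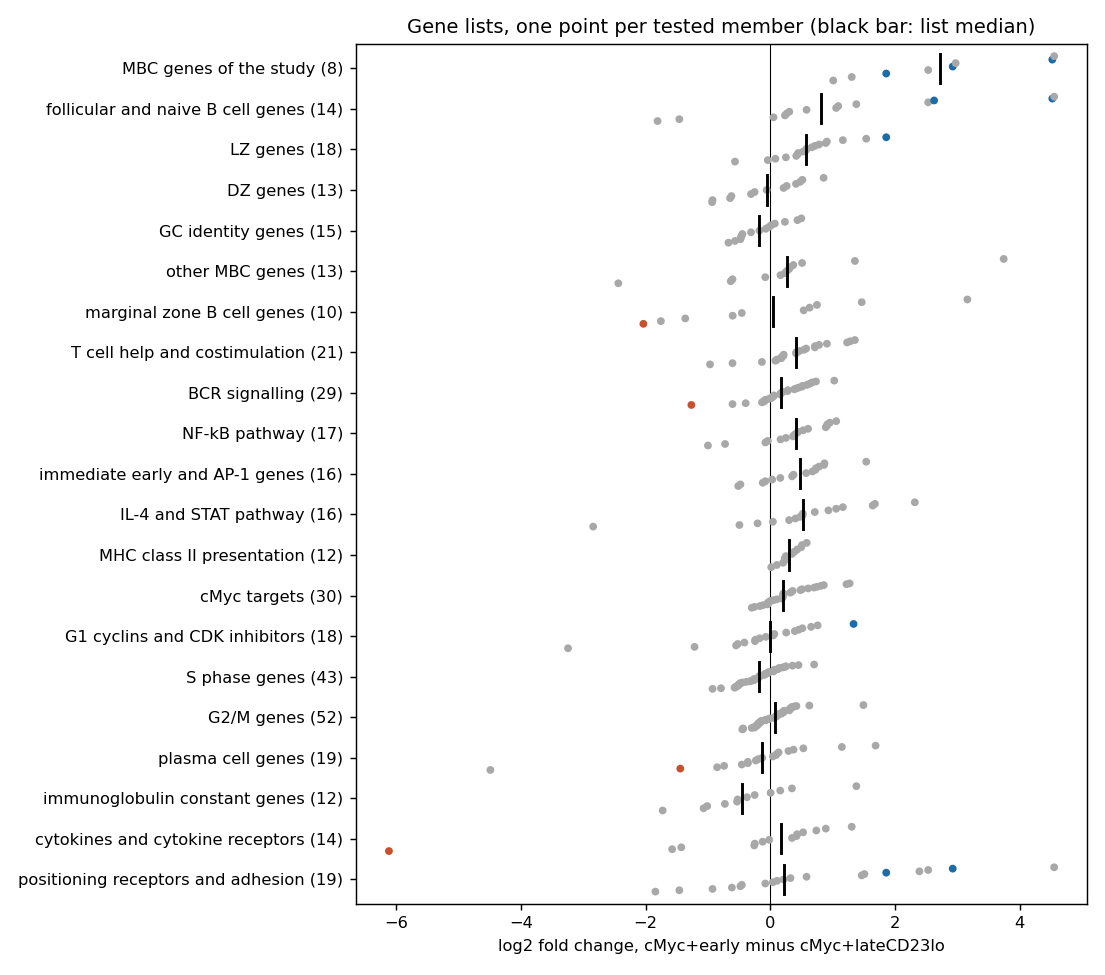
Log2 fold change of cMyc+early minus cMyc+lateCD23lo (horizontal axis) for the tested members of 21 gene lists, with one point per gene, called genes in blue (higher in cMyc+early) or red (higher in cMyc+lateCD23lo), a black bar at each list median and the number of members in brackets. The medians run from 2.73 for the MBC genes named by the study to -0.45 for immunoglobulin constant genes, and most members are gray.

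Other lists held few calls. Of 10 marginal zone genes, 5 were fitted higher in cMyc+early. *Cd9* was called higher in cMyc+lateCD23lo, as 0.160% of all tested genes were, and passed in 3 of the 8 fits that left out a library. The median of the list was 0.04, which turned sign under 3 alternatives. In 11 Notch pathway genes the median was -0.03 and in 15 interferon-stimulated genes -0.07, with 0 called in each, and both signs turned under alternatives. The 22 genes of cholesterol and fatty acid synthesis had a median of -0.11, which turned sign under 1 alternative, and the 13 genes of the BCL2 family of 0.30, with 0 called in each.

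The antibody RNA of the libraries was compared as shares. Of all normalized counts, immunoglobulin light chain variable genes took 0.428%, 0.311%, 0.353% and 0.299% in cMyc+early and 0.546%, 0.442%, 0.452% and 0.446% in cMyc+lateCD23lo, with no overlap (difference -0.124 percentage points, two-sided exact permutation test, p = 0.0286, the smallest p that 4 against 4 allows, 0.0714 adjusted over 5 shares). All immunoglobulin genes together took 1.47% ± 0.145 (SD, n = 4) in cMyc+early and 1.74% ± 0.140 in cMyc+lateCD23lo (exact permutation p = 0.0857, 0.143 adjusted). This share was lower in cMyc+early at 4 of 4 library numbers, but the numbers were not taken as pairs in the test, so nothing is read from it. *Ighm* and *Ighd*, the constant genes used before class switching, made up 67.0%, 66.2%, 62.9% and 63.8% of the counts of 8 heavy chain constant genes in cMyc+early and 53.3%, 57.2%, 61.8% and 58.4% in cMyc+lateCD23lo, again without overlap (exact permutation p = 0.0286, 0.0714 adjusted). None of the shares passed after adjustment. Those without overlap already had the smallest p that 4 against 4 libraries allow. The adjusted test could thus not have passed them on their own, and no lack of difference is read from it. By gene, 0 of 12 constant genes were called, with *Ighg3*, an IgG heavy chain, at 815, 1781, 642 and 1315 against 1807, 3313, 1911 and 2092 (limma adjusted p = 0.212). Mitochondrially encoded genes took 1.64% ± 0.168 and 1.81% ± 0.312 (exact permutation p = 0.429, 0.536 adjusted), and 58 marker genes of other cell types, without *Lck*, 0.0105% ± 0.00444 and 0.0118% ± 0.00117 (p = 0.6 in the exact permutation test, before and after adjustment). The mitochondrial share was lower in cMyc+early at 4 of 4 library numbers, and that of the other cell types at 3, again without pairs in the test.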

How the data were processed

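Total RNA of sorted cells was made into libraries with a low-input kit and sequenced. Per the labels' processing notes, which give no role or order, Trimmomatic 0.36, STAR 2.5.2a, RSEM 1.2.31, DESeq2 1.20.0 and R 3.5.1 were used with GRCm38. The deposited values are a signal, the gene counts of each library over its own size factor (normalized totals still ran from 20562225 to 24208384 in the 8 libraries compared). In 15 libraries 100% of values were multiples (within 0.001) of what 1 read is worth, which gave back the reads. In cMyc+lateCD23int replicate 1 that step could not be told from rounding, and it stayed out of the count tests.

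Here, log2(normalized count + 1) was fitted in limma 3.58.1 (R 4.3.3) in 1 model over all 16 libraries with a trended prior. A fold change on this scale understates that of low genes. Shares were tested by exact permutation (scipy 1.17.1). Alternatives were other pseudocounts, filters and scalings, the replicate block, the 8 libraries alone, edgeR 4.0.16, DESeq2 1.42.0 and leaving out libraries. Named genes are all called genes (by library for the 12 largest differences in each direction), the sorting markers, the MBC genes the study names, and in each list members called with or without the block, or else up to 4 with the smallest p. Comparisons and gene lists were chosen with earlier results of these data known. Coordinates come from GENCODE, where 12471 of the tested genes matched by identifier. Reads of overlapping or near-identical genes may be divided wrongly, and whether counting used strand is not given in the sources used here. Some results are not reported here.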

Additional observations from a re-analysis of the deposited data

Results flagged for a closer look

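Single libraries stood far from the others of their group by Dixon's criterion in 10 of 96 groups of 4, where chance flags about 1 in 20. In *Arsb*, cMyc+lateCD23lo replicate 3 was at 25.5 normalized counts against 0 to 2.16 in the others. In cMyc+early, replicate 1 stood apart in *Klf2* (153 against 45.2 to 61.9), *Ccnd2* (4280.2 against 6611 to 6965) and *Cr2* (9349.5 against 5463 to 6079). cMyc+early replicate 4 stood apart in *Gimap4* (5579 against 8652 to 8764) and *Serpinf1* (126 against 33.7 to 48.2), and replicate 3 in *Cxcr4* (109 against 72.2 to 72.6). In *Cd38*, cMyc+lateCD23lo replicate 1 was at 1409.6 against 1889 to 1916. The share of immunoglobulin genes was 1.69% in cMyc+early replicate 1 against 1.37% to 1.42%, and that of light chain variable genes was 0.546% in cMyc+lateCD23lo replicate 1 against 0.442% to 0.452%.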

How the results depend on the processing

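All 35 called genes kept their sign in the 25 alternatives. The number of genes called, 35 (15 higher in cMyc+early and 20 lower), was 33 with a pseudocount of 0.5, 43 with 5, 29 without a filter, 44 with a mean of at least 50, 34 after rescaling to the same total (which moved the median of all genes to 0.04) and 44 after quantile normalization. Without the trended prior 10 were lower in cMyc+early, and with the 8 compared libraries alone 20 were called (9 higher, 11 lower). edgeR called 25 (14 higher, 11 lower) and DESeq2 219 (102 higher, 117 lower), all 35 among the latter. Leaving out libraries, alone or by number, gave 6 to 50 calls, 3 to 28 of them higher and 2 to 22 lower, with 6 each without number 2, 3 or 4. The cause of these changes was not tested, and the fits that left out libraries also held fewer of them. With the replicate block in limma 90 were called (42 higher, 48 lower), the 35 among them, with edgeR 47 (26 higher), and in limma on the 8 libraries 41. The main fit did not pair the libraries by number. Over all tested genes, the deviations of same-numbered libraries from their group means correlated by 0.0911, 0.0831, 0.0764 and 0.0352 for numbers 1 to 4. Numbers 1, 2 and 3 correlated best with the same number in the other subpopulation, in both directions, and number 4 with another number. Over genes with a mean of at least 1000 the same correlations were 0.488, 0.453, 0.231 and 0.209, and *Ddx3y* was highest in number 2 in 4 of 4 subpopulations, so shared origin of same-numbered libraries is possible, and the labels do not state it.

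The median log2 fold change of the MBC genes named by the study, 2.73, was 1.96 in edgeR and 1.94 in DESeq2, and that of marginal zone genes, 0.04, was 0.54 with a mean of at least 50. Leaving out libraries gave -0.356 to -0.00799 for GC identity genes and -0.273 to -0.107 for S phase genes. *Ptprc* (-0.01) turned sign at 0.0373 with the same total, 0.0919 with quantile normalization, 0.00664 in edgeR and 0.0213 in edgeR with the block, and *Fas* (-0.03) at 0.0258, 0.0394 and, in edgeR with the block, 0.00574. With libraries left out, *Ptprc* ranged from -0.0997 to 0.0837, *Fas* from -0.198 to 0.165, *Cd38* from -0.0936 to 0.545 and *Cd86* from -0.0814 to 0.365. The difference in the light chain variable share was -0.150 to -0.0987 percentage points and that in the *Ighm* and *Ighd* share 5.85 to 8.69 with libraries left out, where 3 against 4 libraries cannot pass after adjustment. Small differences in genes near 0 reads could not be detected at this depth.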
